A study of Mus musculus with 8 samples.

Results

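The leukocyte tetraspanins Cd9, Cd37, Cd53, Cd63, Cd81, Cd82, Cd151 and Tspan32 were examined in RNA-sequencing data of eosinophils sorted from 2 mouse tissues, bone marrow and small intestine. These 8 genes were found by their exact symbols among the 38392 genes of the expression table, 1 entry each. The study compared 4 libraries from bone marrow with 4 from small intestine to ask how eosinophils change when they settle in the gut. The mice were wildtype C57/BL6 animals, female according to the study, and no age was given per library. Bone marrow cells were sorted as CD11b+Ly6G-Ly6C-SiglecF+SSChi cells after flushing of the bone, with no enrichment. Small intestinal cells were sorted as CD11b+MHC-II-SiglecF+SSChi cells after removal of the epithelium with EDTA, warm collagenase digestion and enrichment on anti-CD11b beads. Tissue and handling therefore cannot be told apart.

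Tetraspanins are small proteins that cross the membrane several times and gather integrins, immunoglobulin family proteins, proteases and signalling receptors into membrane microdomains. On leukocytes they shape adhesion, migration and antigen receptor signalling, and within cells they mark multivesicular bodies and the extracellular vesicles that bud from them. CD63 lies mainly in the membranes of lysosomes and secretory granules and reaches the surface of a granulocyte when granules fuse with the plasma membrane, so surface CD63 is used as a measure of degranulation. CD9 lies mainly at the plasma membrane and is a surface marker of human eosinophils. The data below are transcript levels, and surface protein was not measured here.

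Libraries held between 11508002 and 21289164 reads in genes, and the depth was ample for the 8 members, each of which had a mean of more than 10 reads. The labelled cell type was checked against marker genes. In the libraries labelled bone marrow eosinophils, 8 neutrophil precursor genes summed to between 310617 and 397384 normalised counts (reads divided by the library's size factor), led by Mpo and Elane, against 424 to 522 in small intestine. The eosinophil receptor gene Ccr3 was at 70.9 ± 25.7 normalised counts in bone marrow, against 16351 ± 2623 in small intestine (mean ± SD, n = 4 each), whereas the granule gene Epx was at 349.9 ± 40.2 and 20.6 ± 9.06. Siglecf, the gene of the sort antigen, was at 580 ± 66.0 and 3076 ± 516. The 6 listed eosinophil genes summed to 2394 to 3387 in bone marrow, against 16963 to 25132 in small intestine. Of these genes, 3 were called as higher in small intestine and 3 as lower. Small intestine libraries held 3140 to 20767 normalised counts of 8 epithelial genes, led by Krt19 and Lgals4, against 183 to 196 in bone marrow, and SI_6 held the most. They also held 28976 to 36264 of 8 macrophage and dendritic cell genes (737 to 914 in bone marrow). Itgax (14221 ± 1866) and Adgre1 (13672 ± 1373) made up most of that sum in small intestine. The study gated human eosinophils by Siglec8 and EMR1, the human protein of Adgre1, so Adgre1 is not particular to macrophages. Early response genes, listed here as 10 markers of tissue digestion and led by Dusp1 and Fos, were higher too. In small intestine they summed to 58832 to 77959, against 472 to 731 in bone marrow. Whether digestion raised them was not tested. No gene of these lists was at 0 in all libraries of a tissue. The bone marrow libraries thus went against their label in their most abundant marker genes, and no bone marrow library was free of this. The part of such other transcripts in the results below was not tested. In such bulk samples, fewer cells of a type and less RNA per cell cannot be told apart.

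Between the tissues, 5 of the 8 members differed in limma's test at an adjusted p threshold of 0.05: Cd9 and Cd82 were higher in small intestinal eosinophils, and Cd63, Cd81 and Tspan32 were lower. Among all genes, 34.9% were called, 22.0% as higher and 12.9% as lower, and among those averaging at least 10 reads 63.1% were called, so a call as such was common at this level of expression. The libraries of the tissues did not overlap for the same 5 members, and for 34.3% of all genes. Among genes averaging at least 10 reads, as all members do, 10923 of 16215 did not overlap, so such separation was common too. The median difference of the members was -0.12 on the deposited log2 scale, against 0.37 for all genes and 0.12 for those averaging at least 10 reads. Differences are given as small intestine minus bone marrow with limma's standard error (SE), and the deposited scale compresses low counts, so that differences of genes with few reads are understated. Of all called genes, 63.2% were higher, a share that fell to 29.5% when each library was centred on its median over all genes (median difference -0.53) and to 45.8% after quantile normalisation (median difference -0.03). The 5 called members kept their direction and their call under both scalings.

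**Figure D1:**
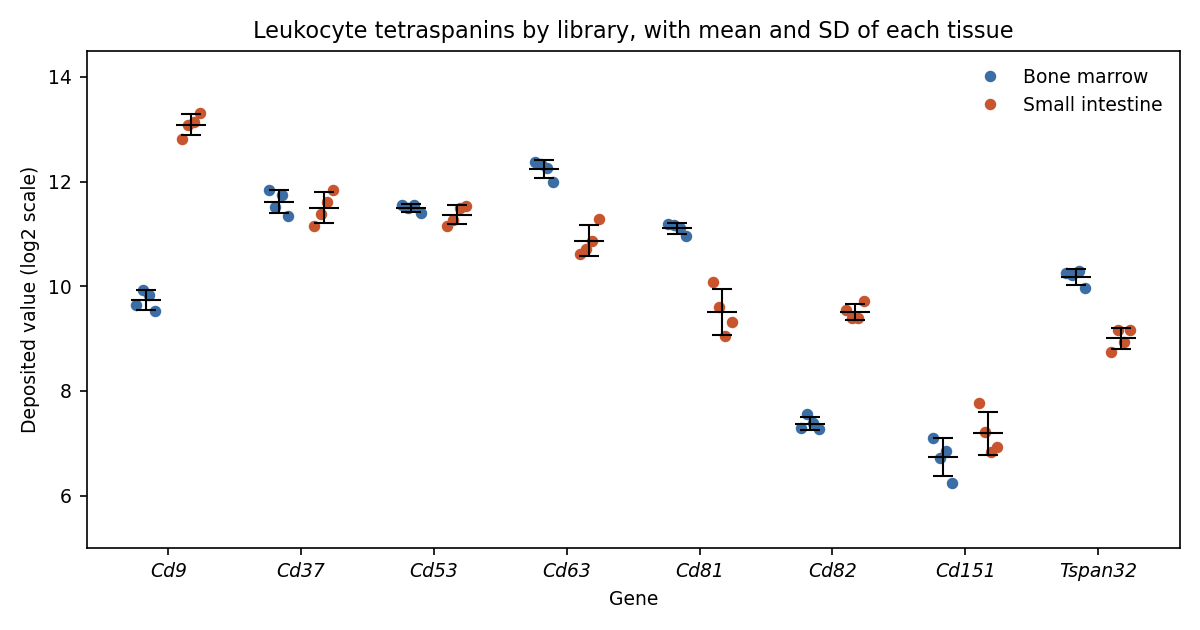
Deposited values (log2 scale, vertical axis) of the 8 leukocyte tetraspanin genes (horizontal axis) in each of the 4 bone marrow and 4 small intestine libraries (points), with the mean and SD of each tissue (bars). The tissues are apart for Cd9, Cd63, Cd81, Cd82 and Tspan32 and overlap for Cd37, Cd53 and Cd151.

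Cd9 (ENSMUSG00000030342, GRCm38 chromosome 6, positions 125460266 to 125494791, minus strand) encodes the tetraspanin that joins integrins and immunoglobulin family partners at the cell surface. Its normalised counts were 799, 971, 913 and 733 in BM_1, BM_3, BM_4 and BM_5, and 7231, 8688, 9060.0 and 10135 in SI_6, SI_7, SI_10 and SI_11. Every small intestine library lay far above every bone marrow library, and the spread within each tissue was small beside the gap. The mean rose 10.3-fold, from 854 ± 108 to 8779 ± 1201 (mean ± SD, n = 4 each), a difference of 3.35 ± 0.20 with a limma adjusted p of 6.42e-06. Platelets and macrophages also carry much CD9. The summed level of 6 platelet genes was 169 to 299 normalised counts in bone marrow, against 802 to 1113 in small intestine. Ppbp (means of 70.4 and 468) and Itga2b (20.3 and 446) carried that rise. Of the 6 genes, 2 were called as higher, 1 as lower and 3 not at all. The sum of the macrophage and dendritic cell genes is given above. The part of platelets and macrophages in the rise of Cd9 was not tested.

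Cd82 (ENSMUSG00000027215, chromosome 2, positions 93419111 to 93463140, minus strand), also known as a suppressor of metastasis and an organiser of integrin and growth factor receptor traffic, was the other member that rose. Bone marrow libraries held 152, 184, 164 and 151 normalised counts of Cd82 in the order used for Cd9, and small intestine libraries 739, 668, 667 and 834. Again no library of one tissue reached the range of the other. The mean was 4.47-fold higher in small intestine, at 727 ± 78.9 against 163 ± 15.3, and the difference was 2.13 ± 0.18 (limma adjusted p = 4.19e-05).

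Cd63 (ENSMUSG00000025351, chromosome 10, positions 128900989 to 128912822, plus strand), which encodes the granule and lysosome tetraspanin, was lower in small intestine. It was measured at 5336, 5168, 4922 and 4075 normalised counts in BM_1, BM_3, BM_4 and BM_5 and at 1557, 1674, 1853 and 2489 in SI_6, SI_7, SI_10 and SI_11. The lowest bone marrow library, BM_5, was still above the highest small intestine library, SI_11. The mean was 2.58-fold higher in bone marrow, at 4875 ± 560.1 against 1893 ± 416, a difference of -1.38 ± 0.22 with a limma adjusted p of 0.00123. Within bone marrow, Cd63 took the same order of libraries as the neutrophil precursor genes, with BM_1 highest and BM_5 lowest. For mast cells and basophils, which are rich in CD63, 7 genes summed to 2627 to 3625 normalised counts in bone marrow, against 576 to 1858 in small intestine. Kit made up most of this sum, at 3031 ± 430.5 in bone marrow and 1189 ± 573 in small intestine. Mcpt8, the next most abundant of the 7, was only at 109 ± 21.3 and 2.46 ± 3.61, so the sum describes mainly Kit. Of the 7 genes, 3 were called as lower, 1 as higher and 3 not at all. Of these genes Mcpt4 was at 0 in all bone marrow libraries, and the part of these cells in the fall was not tested.

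Cd81 (ENSMUSG00000037706, chromosome 7, positions 143052739 to 143067934, plus strand), an organiser of integrins and other receptors on leukocytes, fell to a similar degree. Bone marrow libraries held 2325, 2289, 2201 and 1990.4 normalised counts of Cd81, and small intestine libraries 1081, 774, 525 and 629. Small intestine libraries were all lower, and they spread widely, with SI_6 at the top and SI_10 at the bottom. The mean was 2.93-fold higher in bone marrow (2201 ± 149.8 against 752 ± 242), with a difference of -1.59 ± 0.25 and a limma adjusted p of 0.00125. Without SI_6 the difference was -1.79 ± 0.17 (limma adjusted p = 0.000374). The 6 B cell genes, a cell type rich in CD81, CD37 and CD53, summed to 329 to 567 normalised counts in bone marrow, against 122 to 182 in small intestine.

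Tspan32 (ENSMUSG00000000244, chromosome 7, positions 143005046 to 143019644, plus strand), a tetraspanin largely restricted to blood cells and a restraint on lymphocyte proliferation, lies 33094 bases upstream of Cd81 on the same strand. Its normalised counts were 1224, 1183, 1254 and 993 in bone marrow and 425, 571, 486 and 570.1 in small intestine, in the same order of libraries. Bone marrow libraries were all higher. The mean was 2.27-fold higher there (1163 ± 117 against 513 ± 71.2), and the difference was -1.18 ± 0.19 (limma adjusted p = 0.00153). Cd37 and Cd151 lie on chromosome 7 too, which makes 4 of the 8 members.

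The remaining members did not pass the test. Cd37 (ENSMUSG00000030798, chromosome 7, positions 45233632 to 45239115, minus strand) and Cd53 (ENSMUSG00000040747, chromosome 3, positions 106759921 to 106790149, minus strand) are restricted to leukocytes, where they take part in adhesion and in the surface display of other receptors. Cd37 was at 3679, 2939, 3418 and 2600.3 normalised counts in bone marrow and at 2262, 2674, 3134 and 3655 in small intestine. Cd53 was at 2983, 2867, 2989 and 2694 normalised counts in bone marrow and at 2281, 2467, 2890.2 and 2954 in small intestine. For both genes the ranges of the tissues overlapped, and within small intestine both were lowest in SI_6 and highest in SI_11. The differences were -0.12 ± 0.22 for Cd37 (limma adjusted p = 0.704) and -0.13 ± 0.18 for Cd53 (limma adjusted p = 0.588). After quantile normalisation both were called as lower, at -0.52 each, with limma adjusted p-values of 0.0482 for Cd37 and 0.0169 for Cd53.

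Cd151 (ENSMUSG00000025510, chromosome 7, positions 141467392 to 141471473, plus strand), a partner of laminin-binding integrins in epithelium, platelets and endothelium, had few reads in both tissues. Bone marrow libraries held 134, 102, 112 and 71.6 normalised counts of Cd151, and small intestine libraries 213, 146, 110.5 and 119. The tissues overlapped, with SI_6 and SI_7 above all bone marrow libraries and SI_10 and SI_11 within their range. The difference was 0.46 ± 0.28 (limma adjusted p = 0.251), and it turned to -0.44 ± 0.47 when libraries were centred on their median over all genes (limma adjusted p = 0.471).

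Levels of different genes were compared as normalised counts per kb of exon, with all annotated exons of a gene merged. In bone marrow the order of levels per kb was Cd53 (1655 ± 79.2), Cd63 (1324 ± 152), Cd37 (897 ± 137), Cd81 (765 ± 52.0), Cd9 (418 ± 52.8), Tspan32 (187 ± 18.8), Cd82 (54.1 ± 5.09) and Cd151 (38.2 ± 9.47; mean ± SD, n = 4). Of these neighbours, Cd37 and Cd81 overlapped between libraries and the others did not. In small intestine the levels per kb were 4295 ± 587 for Cd9, 1520.2 ± 187 for Cd53, 832 ± 170.4 for Cd37, 514 ± 113 for Cd63, 261 ± 83.9 for Cd81, 242 ± 26.3 for Cd82, 82.3 ± 11.4 for Tspan32 and 53.6 ± 17.0 for Cd151. Here Cd37 overlapped with Cd63, Cd81 with Cd82, and Tspan32 with Cd151. The order depends on the length used, since the merged exons of Cd63 span 3682 bases and its principal transcript 1109. Per kb of principal transcript, Cd63 led in bone marrow (4396 ± 505), ahead of Cd37 (2575 ± 393) and Cd53 (1655 ± 79.2), and Cd9 still led in small intestine (7149 ± 978).

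The make-up of the leukocyte tetraspanin pool changed with tissue. Cd9 took 7.83% ± 0.783 of the summed level per kb of the 8 members in bone marrow, against 55.0% ± 1.49 in small intestine. The share of Cd63 was 24.8% ± 1.01 in bone marrow, against 6.54% ± 0.657 in small intestine, that of Cd53 31.1% ± 1.38 and 19.5% ± 0.888, and that of Cd37 16.7% ± 1.42 and 10.6% ± 0.886. Cd81 went from 14.3% ± 0.435 to 3.48% ± 1.54, Tspan32 from 3.49% ± 0.101 to 1.06% ± 0.11, and Cd82 from 1.02% ± 0.103 to 3.13% ± 0.393. These 7 shares differed between tissues, each with a p of 0.0286 in a 2-sided exact permutation test (adjusted 0.0327 over the 8 shares), which is the smallest p that 4 against 4 libraries can give. Cd151 held 0.709% ± 0.125 and 0.713% ± 0.316 (exact permutation p = 1). With principal transcript lengths the share of Cd9 was 6.05% in bone marrow, against 51.0% in small intestine, that of Cd63 38.1% and 12.1%, and the same number of shares, 7, passed the threshold. Without division by length Cd9 held 5.55% in bone marrow, against 47.7% in small intestine, and its share there ran from 45.8% to 49.2%. Shares sum to a whole, and Cd37 and Cd53, which were lower in share, did not pass the test in their own values.

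**Figure D2:**
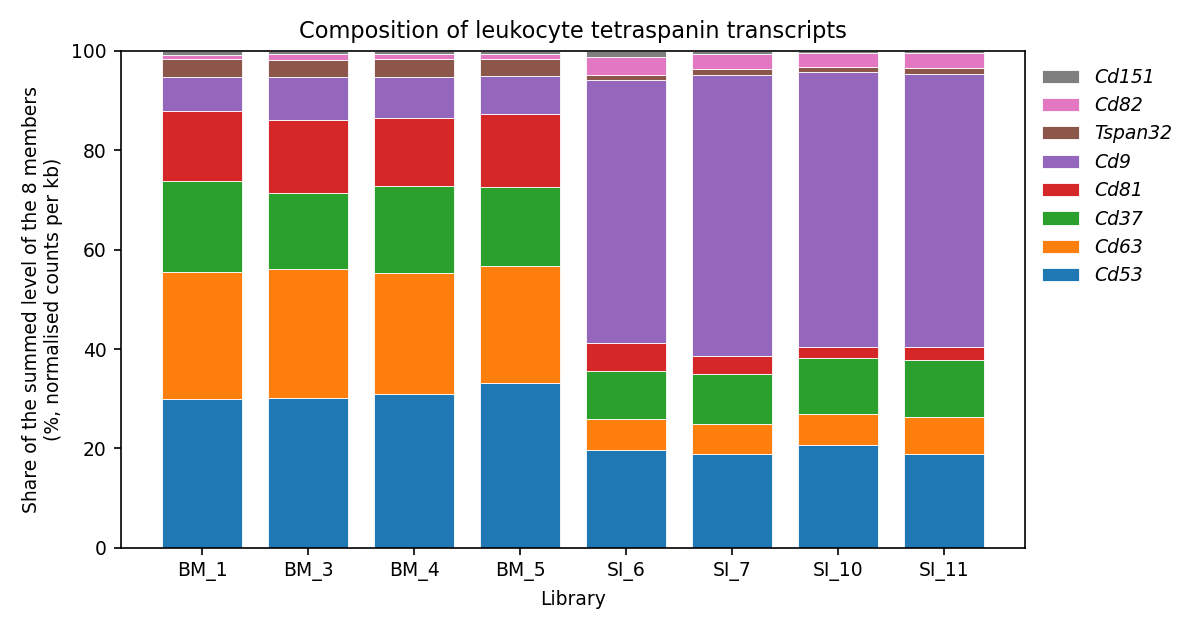
Share of each of the 8 members in their summed level (vertical axis, percent of normalised counts per kb of merged exon) in each library (horizontal axis), stacked to 100%. Cd9 takes 6.86% to 8.73% of each bone marrow library and 53.0% to 56.5% of each small intestine library, and the share of Cd63 falls from between 23.7% and 25.8% to between 6.05% and 7.51%.

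The summed level of the 8 members was 5338 ± 453 normalised counts per kb in bone marrow, against 7801 ± 969 in small intestine, and it was higher in each of the 4 small intestine libraries (exact permutation p = 0.0286, 2-sided). Without division by length the sums were 15404 ± 1451 and 18390.4 ± 2338, and this difference did not pass the threshold (exact permutation p = 0.0857). Cd9 alone went from 418 ± 52.8 to 4295 ± 587 normalised counts per kb. The means of Cd37, Cd53, Cd63, Cd81 and Tspan32 were lower in small intestine, and those of Cd82 and Cd151 were higher. These sums depend on how libraries are scaled, and no other scaling of them was tested. Ratios between members within a library, which do not depend on how libraries are scaled, differed between tissues for 22 of 28 pairs (2-sided exact permutation p = 0.0286, adjusted 0.0364 over the 28 pairs). The pairs are all formed from the same 8 genes, so they are not separate results, and ratios of other genes were not examined. The ratio of Cd9 to Cd63, a plasma membrane against a granule tetraspanin, was -2.51 ± 0.15 in bone marrow, against 2.23 ± 0.15 in small intestine on a log2 scale, a difference of 4.74. The ratio of Cd37 to Cd53, the leukocyte-restricted pair, did not pass the threshold, with log2 values of 0.12 ± 0.16 in bone marrow, against 0.13 ± 0.13 in small intestine (exact permutation p = 0.914). Ratios among the 3 members that fell did not pass it either. Cd63 against Cd81 differed by 0.22 (exact permutation p = 0.486), Cd63 against Tspan32 by -0.20 (exact permutation p = 0.143) and Cd81 against Tspan32 by -0.41 (exact permutation p = 0.2). The other pairs that did not pass were Cd37 with Cd151 and Cd53 with Cd151.

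The promoters of the members were read from RefSeq on GRCm38.p6, as windows from 250 bases before to 50 bases after each start site, to show which short motifs lie where transcription of these genes begins. The 8 members have 12 such windows because Cd82 has 4 and Cd151 has 2, and RefSeq places the start of Cd63 downstream of the gene start given above. Both strands were searched for 4 motifs, none of which contains another. The first was GCGTG, the core bound by the aryl hydrocarbon receptor that the study is about (called the AHR core here). The second was the AP-1 motif of Fos and Jun proteins, TGANTCA. The third was the E-box of basic helix-loop-helix factors, CACGTG. The last was the core bound by PU.1 and other ETS factors, GAGGAA (called the ETS core here). The AHR core lay in windows of 4 members, Cd9, Cd81, Cd82 and Cd151, and the ETS core in windows of 5, Cd37, Cd53, Cd63, Cd82 and Tspan32. Counted by window, each of these cores lay in 5 of the 12. Of all 32851 promoter windows of the genome, 32.4% held the AHR core, 28.3% the ETS core, 7.81% the AP-1 motif and 7.15% the E-box. The AP-1 motif was in 0 of the 12 member windows and the E-box in 1, that of Cd37. The sites below come from both members that rose and from members that fell or did not pass the test. They are written along the transcript, with the named motif or its reverse complement in capitals. Other matches in a stretch are left in lower case. The first Cd82 start shown has further AHR cores 4 bases before it and 11 and 16 bases after it.
Cd9, chr6:125494711-125494740, minus strand, motif 43 bases after the start: cctcaggccagcccctagccgcaGCGTGtc
Cd82, chr2:93462500-93462529, minus strand, motif 15 bases before the start: actgtataggggGCGTGtcaagggcgtggt
Cd82, chr2:93461857-93461886, minus strand, motif 23 bases before another start: gtttccgttcttTTCCTCcttccacgttct
Cd81, chr7:143052564-143052593, plus strand, motif 174 bases before the start: attcatcctgcgCACGCacagtgcaccgag
Cd63, chr10:128909274-128909303, plus strand, motif 59 bases before the start: ctagacaagggcTTCCTCaaagggttttct
Tspan32, chr7:143005016-143005045, plus strand, motif 18 bases before the start: gaggagagtaaaGAGGAAgggaggagaggg
Cd53, chr3:106790171-106790200, minus strand, motif 39 bases before the start: tgcaagttcactGAGGAAcagttgactatc
Cd37, chr7:45238845-45238874, minus strand, motif 23 bases before the start: cccccccggaacTTCCTCtttctctgccgg
The AHR core thus stood near starts of Cd9 and Cd82, which rose, of Cd81, which fell, and of Cd151, which did not pass the test. The ETS core stood near a start of Cd82 as well as at members that fell and at members that did not pass the test. A match of letters is a description, and binding was not measured.

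Of 23 other tetraspanin genes, which serve many tissues, 14 were called, 10 as higher in small intestine and 4 as lower, with a median difference of 1.10. Of the 17 with a mean of at least 10 reads, 12 were called. The shares called were 34.9% over all genes and 63.1% over those averaging at least 10 reads. Tspan13, a tetraspanin of little-studied function that has been tied to calcium channels, was the most abundant of them per kb and had the largest rise, from 42.1 to 66.5 normalised counts in bone marrow libraries to 5821 to 8838 in small intestine libraries (7.00 ± 0.22, limma adjusted p = 3.36e-07). Its level per kb in small intestine, 2979.7 ± 503, was above the mean level of every member but Cd9 on the same scale of merged exon length. Like Cd9, it was lowest in SI_6 and highest in SI_11. Tspan8, a tetraspanin of intestinal epithelium and its tumours, was at 0.766 to 10.2 normalised counts in bone marrow, against 252 to 1809 in small intestine, highest in SI_6 (6.33 ± 0.66, limma adjusted p = 0.000136). Tspan12, a coreceptor subunit of Norrin signalling in vessels, rose by 4.44 ± 0.47 from levels near 0 (limma adjusted p = 0.000153) and was highest in SI_6 too.

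The largest falls in the family were those of Tspan31 (-2.85 ± 0.47, limma adjusted p = 0.00161), Tspan9, a platelet tetraspanin (-1.91 ± 0.34, limma adjusted p = 0.00235), and Tspan4, a component of migrasomes, the vesicles that migrating cells leave behind (-1.89 ± 0.25, limma adjusted p = 0.000534). Tspan4 was at 88.3 to 100.5 normalised counts in bone marrow, against 13.0 to 29.1 in small intestine. Tspan2, the second most abundant of the other family members per kb, was at 3065 ± 152 normalised counts in bone marrow, against 2610.3 ± 447 in small intestine, and did not pass the test (-0.25 ± 0.20, limma adjusted p = 0.385). Its call changed with the scaling, as it was lower by quantile normalisation (-0.64, limma adjusted p = 0.0107). Of the 6 family members that bind the protease ADAM10 and guide it to the surface, Tspan15 and Tspan17 were higher (3.56 ± 0.54 and 3.07 ± 0.21), Tspan5 was lower (-0.60 ± 0.18, limma adjusted p = 0.0302), and Tspan10, Tspan14 and Tspan33 did not pass. Tspan14, the most abundant of these per kb, was at 592 ± 32.1 normalised counts in bone marrow, against 569 ± 47.9 in small intestine. Adam10 itself fell, from 1597 ± 123 to 852 ± 104 normalised counts (-0.91 ± 0.18, limma adjusted p = 0.00455).

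**Figure D3:**
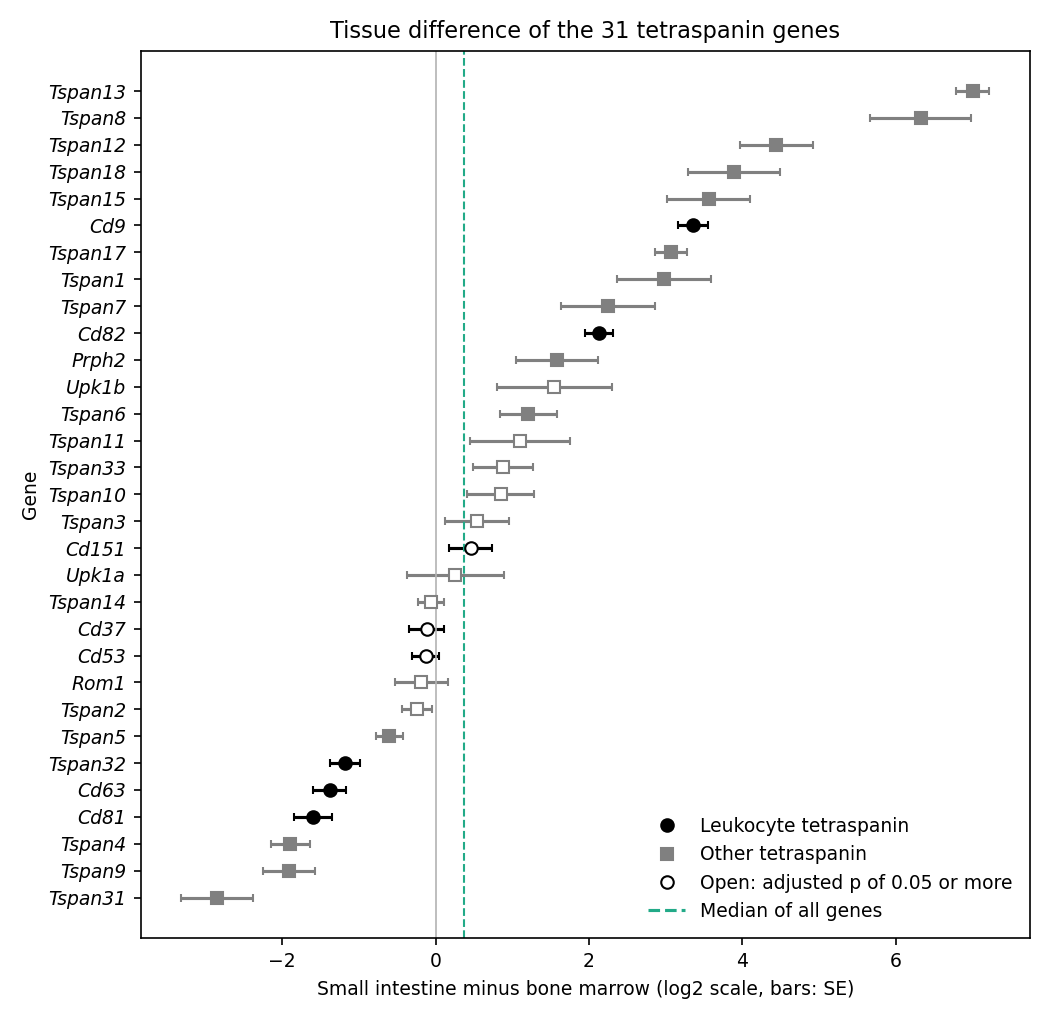
Difference between tissues (horizontal axis, log2 scale, positive where small intestine was higher, with SE) of the 31 tetraspanin genes (vertical axis), with the 8 leukocyte members as circles, the others as squares and open symbols for genes that did not pass the test. Tspan13 is at the top with 7.00, Tspan31 at the bottom with -2.85, and the dashed line marks the median of all genes, 0.37.

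Surface proteins that tetraspanins bind were taken as a list of 28 genes. Of these, 22 were called, 15 as higher and 7 as lower (median difference 1.17), against 9 higher and 8 lower when libraries were centred on their median over all genes. All 22 were among the 27 that averaged at least 10 reads, a level at which 63.1% of all genes were called. The 3 most abundant per kb were Ifitm2, an interferon-induced membrane protein, Itgam, which encodes CD11b, and Cd44, a hyaluronan receptor. They rose by 1.48 ± 0.23, 1.57 ± 0.22 and 1.43 ± 0.18 (limma adjusted p = 0.00111, 0.000702 and 0.000363), and all 3 lost the call under that centring. CD11b was also the antigen of the beads and of the sort. The largest rises were those of Epcam (7.67 ± 0.70), an epithelial adhesion protein that is also in the epithelial marker list, of Ifitm1, a CD81 partner (7.66 ± 0.35), and of Hbegf, the growth factor precursor that CD9 binds (6.19 ± 0.53). Ifitm1 was at 6.51 to 21.5 normalised counts in bone marrow libraries, against 2365 to 4007 in small intestine libraries.

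The largest fall among the partners was that of Vcam1. Vcam1, the adhesion receptor for integrin alpha 4 that CD9 and CD151 hold in endothelial platforms, was at 4985 to 6774 normalised counts in bone marrow, against 207 to 270.2 in small intestine (-4.59 ± 0.20, limma adjusted p = 1.43e-06). Of the CD9 and CD81 partners of the immunoglobulin family, Ptgfrn was higher (4.73 ± 0.47) and Igsf8 lower (-1.30 ± 0.30).

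Genes that sort CD63 to granules, lysosomes and vesicles moved in both directions. Of 19 such genes, 12 were called, 8 as higher and 4 as lower (median difference 0.32), against 2 higher and 6 lower under median centring over all genes. All 19 averaged at least 10 reads, a level at which 63.1% of all genes were called, so the number called was near that share. Lamp1, a lysosomal membrane protein and the most abundant of them per kb, was at 3892 ± 469.6 normalised counts in bone marrow, against 4865 ± 696 in small intestine (0.32 ± 0.20, limma adjusted p = 0.247). Lamp1 was called as higher with limma voom on reads (limma adjusted p = 0.0275) and with an intensity trend (limma adjusted p = 0.0155), and its sign turned under median centring over all genes and quantile normalisation. Sdcbp encodes syntenin, which links CD63 to the vesicle-forming machinery, and rose from 4369.6 ± 339 to 16993 ± 1975 normalised counts (1.95 ± 0.18, limma adjusted p = 6.96e-05). Median centring over all genes ended its call (limma adjusted p = 0.062). Sdcbp was thus higher in the tissue where Cd63 was lower.

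Among the small GTPases of vesicle and granule release, Rab27a was at 3499 ± 134 normalised counts in bone marrow, against 2791 ± 445 in small intestine, and did not pass the test (-0.34 ± 0.19, limma adjusted p = 0.211). It did pass, as lower, with limma voom on reads, with an intensity trend, and under median centring over all genes and quantile normalisation (limma adjusted p = 0.00262 to 0.0265), but not under median centring over genes averaging at least 10 reads (limma adjusted p = 0.241). Rab27b rose (3.88 ± 0.66, limma adjusted p = 0.00196) to 36.7 to 138 normalised counts, as did Pld2, a phospholipase of vesicle formation (3.44 ± 0.39, limma adjusted p = 0.000218), and both were highest in SI_6. The falls were led by Ap3s1 (-1.96 ± 0.20, limma adjusted p = 0.000132), Ap3s2 (-0.98 ± 0.18, limma adjusted p = 0.00307) and Ap3m1 (-0.85 ± 0.17, limma adjusted p = 0.00412), subunits of the adaptor AP-3 that carries CD63 to lysosomes and granules. The large AP-3 subunit Ap3b1 was higher (0.58 ± 0.19, limma adjusted p = 0.0433), and Ap3d1 did not pass the test (0.28 ± 0.18).

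Within small intestine, the order of libraries by epithelial marker genes was SI_6, SI_7, SI_11 and SI_10, at 20767, 8475, 3814 and 3140 normalised counts in sum. Cd81 and Cd151 followed this order, which 9.93% of genes averaging at least 10 reads did, and the other 6 members did not. Tspan3, Tspan5 and Tspan31 did so too. Cd9, Cd37, Cd53 and Cd63 were lowest in SI_6, where epithelial markers were highest. Within bone marrow, Cd63 and Cd81 followed the order of the neutrophil precursor genes, as 6.16% of genes did. With 4 libraries per tissue such orders are descriptions, and the part of other cells in the levels was not tested.

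**Figure D4:**
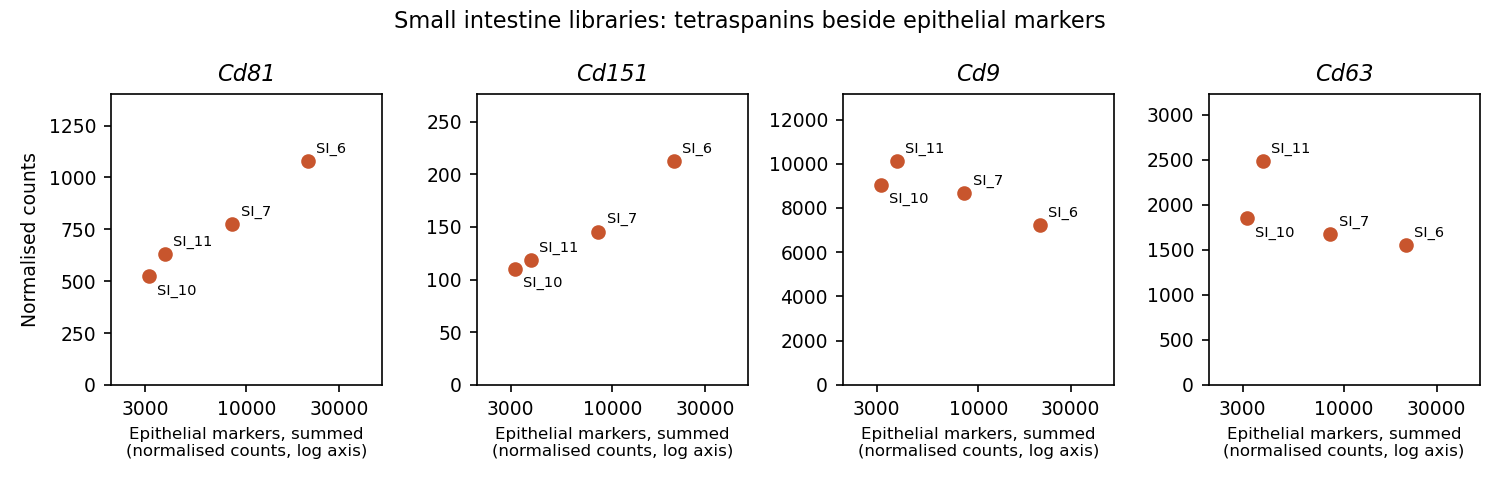
Normalised counts (vertical axes) of Cd81, Cd151, Cd9 and Cd63 in the 4 small intestine libraries against the summed normalised counts of 8 epithelial marker genes (horizontal axes, log scale). Cd81 and Cd151 are highest in SI_6, where the markers reach 20767, while Cd9 and Cd63 are lowest there and highest in SI_11.

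The genes whose profile over the 8 libraries was most like that of Cd63, by the root mean square difference of log2 values after subtraction of each gene's own mean among 8670 protein-coding genes, were Cenpt, a centromere protein (0.094), Rbm38, an RNA-binding protein (0.1), and Lyl1, a transcription factor of blood cells (0.102). Each of these fell, with differences of -1.38 ± 0.21, -1.32 ± 0.20 and -1.25 ± 0.23. Nearest to Cd9 were Eepd1 (0.0743), the lysosomal protease gene Ctsh (0.0988) and P2rx4, an ATP-gated channel of lysosomes and the cell surface (0.1). Their differences were 3.31 ± 0.19, 3.42 ± 0.20 and 3.45 ± 0.21. Such likeness rests mainly on a shared difference between tissues.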

How the data were processed

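RNA was sequenced from sorted cells with 4 libraries per tissue, each listed as a separate sample in the labels. According to the study's methods, amplified cDNA was read from 1 end and reads were counted per gene on GRCm38 with the nf-core RNA-seq pipeline. The submitters' processing notes name R 4.0.3 and DESeq2. The aligner was not given in the sources used here, nor was the strand setting. The values deposited by the authors are log2 values from DESeq2's variance stabilisation of counts. Column names gave the tissue but matched no single sample, so libraries are named by column, and 0 columns were left out.

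The closed form of the transformation was inverted from the lowest deposited value. With size factors between 0.721 and 1.53, 100% of genes came out as whole reads within 0.05 reads in each library. Because the deposited unit is log2, limma 3.58.1 in R 4.3.3 (constant prior, no covariate, no filter, all 8 libraries) took the place of the count model that the study used, and p-values were adjusted over 38392 genes by the Benjamini-Hochberg method. The fit was tested on simulated data in which few genes changed, as many up as down, so scaling between tissues was not tested there. Single values were compared with 2-sided exact permutation tests over 70 assignments. Log2 ratios carried a pseudocount of 1 read. The p-values measure the spread between these libraries. Limits of depth concern the 22177 genes with a mean under 10 reads.

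The members and gene lists were chosen with earlier results of these data known. Of the genes that the rule named, 2 are not reported here. Named were all members, the 3 most abundant genes per kb, 3 largest rises and 3 largest falls of each other list, the 3 protein-coding genes nearest in profile to Cd63 and Cd9, and the 2 most abundant genes of marker lists whose sums differed. Adam10, Ptgfrn, Igsf8, Ap3b1, Ap3d1 and the family members that bind ADAM10 were chosen after their values were seen, as were Tspan3 and, in the marker check, Epx. Gene positions and lengths came from GENCODE M21, which held all 38392 identifiers, and promoters from RefSeq on GRCm38.p6. Python 3.11.15 with numpy 2.4.6, pandas 2.3.3 and matplotlib 3.10.9 did the rest.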

Additional observations from a re-analysis of the deposited data

How the results depend on the processing

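Each call was recomputed under 7 other fits, scalings or filters and without each library in turn. The 5 called members kept their direction and call in all 16 settings, and quantile normalisation alone raised the count to 7. Without 1 library, the number of called members stayed at 5, that of other tetraspanins lay between 11 and 15, of surface partners between 21 and 22, of CD63 sorting genes between 10 and 13, of ratios between 20 and 23 and of shares at 7. Median centring over all genes turned Cd151 to -0.44 and Lamp1 to -0.58, and quantile normalisation turned Lamp1 to -0.20, none of them past the threshold. Of the 32 named genes and members that were called, 28 kept call and sign throughout, and Ifitm2, Itgam, Cd44 and Sdcbp lost the call under median centring. Shares by principal transcript length were added after seeing the data and again gave 7. No paired analysis was possible because the labels number the samples of the tissues without a shared number and the columns carry none. Depth did not limit the members, whereas Tspan6, Tspan10, Tspan11, Prph2, Upk1a and Upk1b had means under 10 reads. The tissue contrast could not be separated from the handling, the sort gate or the neutrophil precursor transcripts of the bone marrow libraries.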

Other observations

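Several genes on the opposite strand of a member moved with it. Their values were looked at after those of the members were seen, and since the strand setting is not given in the sources used here, reads of such a gene cannot be told apart from reads of unspliced transcripts of the member. Gm28809, an antisense gene at chromosome 6, positions 125481363 to 125484678, plus strand, lies within Cd9 with 0 bases shared between exons. It was at 116, 108, 70.8 and 108 normalised counts in BM_1, BM_3, BM_4 and BM_5 and at 3746, 5483, 5020.1 and 6110.2 in SI_6, SI_7, SI_10 and SI_11, so that all small intestine libraries were higher. The difference of 5.61 ± 0.24 (limma adjusted p = 1.51e-06) stands beside 3.35 ± 0.20 for Cd9. Gm26728, which overlaps the start of Cd9 on the opposite strand by 218 exon bases, was at 1.67 ± 1.20 and 33.9 ± 3.24 normalised counts (3.19 ± 0.36, limma adjusted p = 0.000214).

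Within Cd82, the long noncoding RNA gene Gm10804 on the opposite strand shares 0 exon bases with it and rose from 15.2 ± 3.85 to 152 ± 29.3 normalised counts (3.06 ± 0.23, limma adjusted p = 2.44e-05). At Cd81, R74862 shares 104 exon bases and fell from 48.0 ± 3.94 to 29.0 ± 7.89 normalised counts (-0.69 ± 0.23, limma adjusted p = 0.0471). The opposite-strand neighbours of the other members that overlap them, Tead2 at Cd37, Tspan32os at Tspan32 and Gm10575 at Cd151, did not pass the test, with differences of 0.28 ± 0.23, -0.33 ± 0.25 and -0.22 ± 0.45.

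In the marker lists not described above, 6 erythroid genes summed to 820.4 to 1042 normalised counts in bone marrow and 43.9 to 89.5 in small intestine, 5 plasma cell genes to 16.3 to 105 and 3937 to 26318, and 5 endothelial genes, of which Pecam1 is also found on leukocytes, to 403 to 522 and 7337 to 9739.5. In small intestine, Pecam1 (8162 ± 1127) made up most of the endothelial sum, and Igha (13597 ± 8701) most of the plasma cell sum. The 6 fibroblast genes summed to 5.74 to 61.4 and 154 to 724, the 5 smooth muscle genes to 76.6 to 159.9 and 688 to 1708, and the 6 T cell genes to 32.5 to 63.2 and 56.9 to 93.0 normalised counts.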
